A study of Rattus norvegicus with 4 samples.

Results

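The astrocyte genes described here were 34 genes that mark astrocytes or are strongly expressed by them. Among these, Gfap, Vim and Nes encode the filaments of reactive astrocytes, and the other 31 are grouped as genes of resting, homeostatic cells. Some of the 31, such as Fabp7, Sparc and Clu, are also expressed by other cells. Their members were all probe sets that the platform annotation assigned to exactly 1 symbol from this list. A probe set is a group of short probes that are read together as 1 signal for a gene's transcript or transcripts. The rule found 31 of the 34 genes, out of 14217 genes with such a probe set, and 47 of the 31042 probe sets. Sox9, Gpc5 and Ednrb had no probe set with that symbol alone. Of the 47, 39 probe sets of 29 genes reached a signal of 100 on 2 or more arrays and were tested, and 8 did not. Nes and the deiodinase gene Dio2 had no tested probe set.

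The RNA came from the total hippocampus of male Wistar rats. Stressed rats were 15 months old when 4 weeks of chronic unpredictable mild stress began, a changing series of mild stressors used as a model of depression, and 16 months old at dissection. Nonstressed controls were of the same age, 16 months. Each group gave 2 arrays, each carrying RNA pooled from 3 rats, and the labels name no drug or transgene in either. The sources used here do not say whether both pools of 1 group came from separate rats, so each p measures the spread between pools, which may be technical.

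The arrays were evenly scaled at the middle of the signal range. Their median signals lay between 79.3 and 82.1, and 46.4% to 46.8% of the probe sets had a signal of at least 100. Among the brightest probe sets the replicates of a group differed in a shared order, as described below. Log2 signals of the tested probe sets correlated with r of 0.993 to 0.994 within the groups and 0.972 to 0.974 between them, across probe sets that are not independent. Of the defining astrocyte markers, the brightest probe sets of Gfap, Aqp4, Aldh1l1, Gja1, Gjb6 and S100b had signals of at least 415.1 on every array.

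Astrocytes take up transmitter and potassium from around synapses, carry water and ions through endfeet on blood vessels, couple to each other through gap junctions, and supply neurons with lipids and metabolites. After injury many of them become reactive, enlarge their processes and raise the filament proteins Gfap and vimentin. In the hippocampus they surround the synapses of the CA fields and the dentate gyrus, where radial glia with several of the same proteins act as neural stem cells.

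The promoters of 4 genes are shown because they stand for the outcomes met below. Gfap did not pass the test, Vim and Fabp7 were lower, and Id4 was higher at 3 of its 4 probe sets. Each sequence holds the 250 bases before the RefSeq start in the build GRCr8, 5′ to 3′ on the gene's strand. Capitals mark matches on either strand. The motifs were the TATA box, searched as TATAAA, the GC box, searched as GGGCGG, and the CCAAT box, whose letters are its name, and no matches overlapped.
Gfap, chr10:88361662-88361911, minus strand: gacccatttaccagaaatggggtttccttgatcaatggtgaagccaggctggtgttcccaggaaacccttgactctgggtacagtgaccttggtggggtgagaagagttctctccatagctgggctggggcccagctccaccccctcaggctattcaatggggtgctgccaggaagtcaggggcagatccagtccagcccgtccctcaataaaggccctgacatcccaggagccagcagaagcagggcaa
Vim, chr17:81577011-81577260, plus strand: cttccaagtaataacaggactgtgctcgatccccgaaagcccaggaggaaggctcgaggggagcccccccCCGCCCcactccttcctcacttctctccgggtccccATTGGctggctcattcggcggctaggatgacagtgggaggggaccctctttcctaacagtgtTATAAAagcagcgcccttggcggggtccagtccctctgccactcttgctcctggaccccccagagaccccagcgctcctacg
Fabp7, chr20:37669356-37669605, plus strand: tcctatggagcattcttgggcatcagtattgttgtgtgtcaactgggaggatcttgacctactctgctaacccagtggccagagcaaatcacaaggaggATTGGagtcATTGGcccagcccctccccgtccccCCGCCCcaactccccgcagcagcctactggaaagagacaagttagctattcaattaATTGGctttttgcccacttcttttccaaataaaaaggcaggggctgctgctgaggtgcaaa
Id4, chr17:16598294-16598543, minus strand: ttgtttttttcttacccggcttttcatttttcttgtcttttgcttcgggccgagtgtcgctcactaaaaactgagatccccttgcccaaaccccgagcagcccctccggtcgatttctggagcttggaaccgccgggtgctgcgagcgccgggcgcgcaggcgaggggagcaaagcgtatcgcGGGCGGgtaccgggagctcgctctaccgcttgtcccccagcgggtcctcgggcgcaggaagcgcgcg
Vim held 1 TATA box, which began 82 bases before the start, and 1 CCAAT box and 1 GC box on the opposite strand. Fabp7 held 3 CCAAT boxes and 1 GC box, all on the opposite strand. Id4 held 1 GC box, and no match was found in the window of Gfap. Of all 33469 promoter windows of this length, 12.9% held the TATA box, 34% the CCAAT box and 30.5% the GC box. The GC content was 57.6% for Gfap, 62.4% for Vim, 51.6% for Fabp7 and 62.8% for Id4, against a median of 51.2% over all windows. Vim and Fabp7, both lower, thus held the CCAAT box, as did 34% of all windows, and the windows of Gfap and Id4 held none. The window of Fgfr3, which was also lower, is not shown, and the 4 genes were picked by their outcomes. This is a description of 4 windows and no test.

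The astrocyte genes did not move as a block in stressed rats. With each gene represented by its brightest tested probe set, 5 were higher, 3 were lower and 21 of 29 did not pass the test at an adjusted p under 0.05 (limma on log2 signals, adjusted by Benjamini-Hochberg over all 14791 tested probe sets). The higher genes were Slc4a4, Atp1b2, Hepacam, Id4 and Bcan, and the lower ones were Vim, Fgfr3 and Fabp7. Over all 9264 genes tested in the same way, 11.1% were higher and 10.2% lower, beside 17.2% and 10.3% of the astrocyte genes. At these probe sets the lower share thus matched the background, and the higher one lay above it by few genes, an excess that was not tested. The higher count was 3 without stressed replicate 1 and 2 without control replicate 1 or control replicate 2, while the lower count stayed at 3. Leaving out an array leaves 1 in its group, and the share of all genes called in such fits was not counted. A call could be lost there with the difference kept, as for Hepacam (0.36 with all arrays, 0.39 without control replicate 2). The counts from all arrays also depended on the probe set read. By any tested probe set 5 genes were higher and 7 lower, and Slc4a4 and Id4 were in both counts. By the mean of a gene's probe sets 2 were higher and 5 lower. At the brightest probe sets the median log2 fold change of the members, stressed minus control, was 0.06, beside 0.02 for all genes. It was positive for 22 of the 29, beside 52.9% of all genes. In whole tissue, fewer cells of a type and less RNA per cell cannot be told apart.

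By probe set, 8 of the 39 were higher and 7 lower, where 12% of all tested probe sets were higher and 11.8% lower. Both stressed arrays lay above both control arrays at 17 probe sets and below them at 12, while 34.9% and 29.5% of all tested probe sets were separated in these directions. None of the astrocyte probe sets reached a 2-fold rise at an unadjusted p under 0.05 in limma, and 1, the second brightest probe set of Aqp4, reached a 2-fold fall. These are the study's fold and p thresholds, but its methods name an unpaired t-test as the source of p. Among all tested probe sets 0.216% were higher and 1.38% lower by these thresholds. At an unadjusted p under 0.05 alone, 14 of the 39 astrocyte probe sets were higher and 9 lower in limma, beside 20.4% and 17.6% of all tested probe sets. The methods' t-test, with each probe set's spread taken from its own arrays, called none of them after Benjamini-Hochberg adjustment. With 2 arrays a group it has little power, and it also called none of 13 choroid plexus markers, of which limma called 9. Its share over all probe sets was not counted, so its lack of calls, here and below, says little about the members. The summed signal of the 31 genes was 160112 and 151809 on the stressed arrays and 143780 and 151919 on the control arrays, so the groups overlapped. Such sums of linear signals, here and below, are weighted towards the brightest genes.

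**Figure D1:**
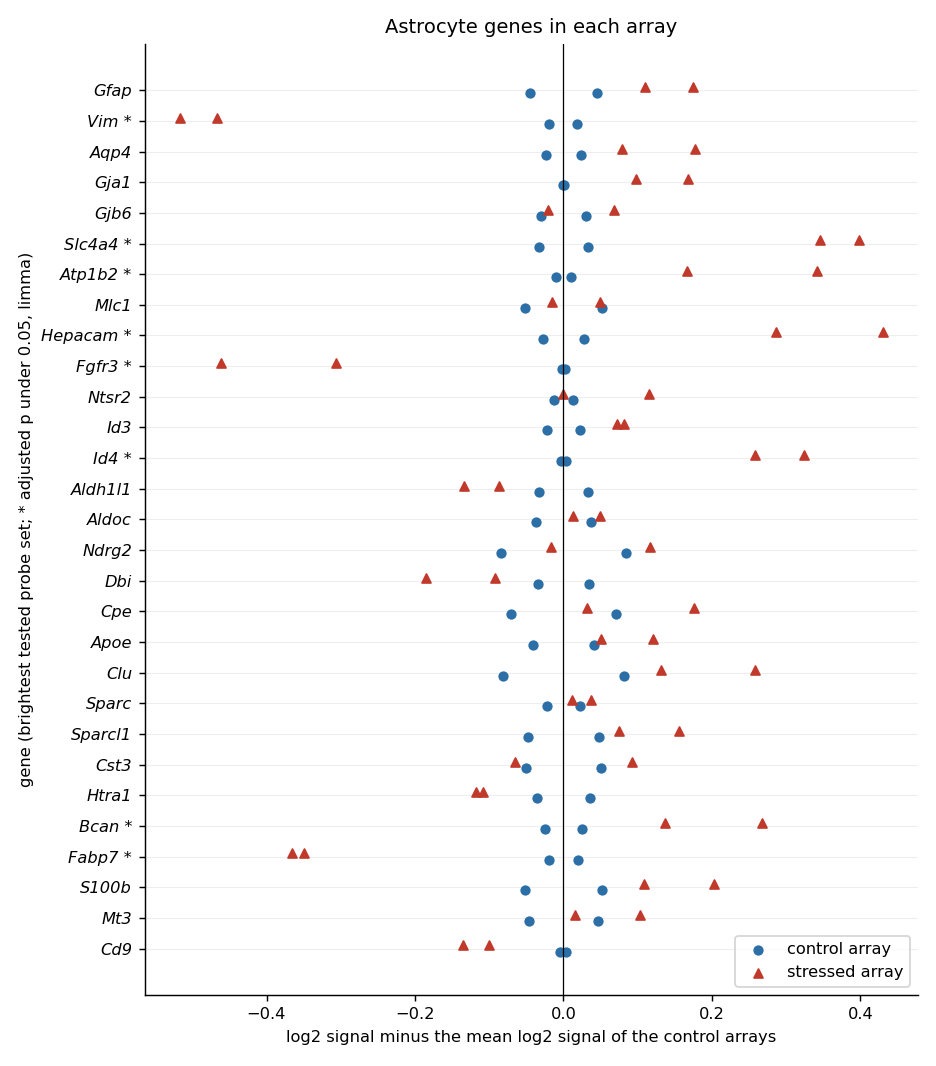
Log2 signal of each tested astrocyte gene on each array (brightest tested probe set), minus the mean log2 signal of its control arrays, with circles for control and triangles for stressed arrays and a star at genes with an adjusted p under 0.05. Both stressed arrays of Vim, Fgfr3 and Fabp7 lie left of the controls and those of Slc4a4, Atp1b2, Hepacam, Id4 and Bcan lie right of them, while Gjb6, Mlc1 and Cst3 overlap.

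The filament genes of reactive astrocytes did not rise together. Gfap, the main filament protein of mature astrocytes, had signals of 8289.1 and 7921.4 in stressed rats and 7119.2 and 7573.7 in controls. Both stressed arrays were above both controls, by a gap narrower than the difference between the controls. Its log2 fold change was 0.14 (SE 0.05, 95% interval 0.02 to 0.26), with an adjusted p of 0.0799 from limma, and it was not called. After quantile normalization the value was 0.12 with an adjusted p of 0.0275, and over all its alternatives the adjusted p ran from 0.0275 to 0.337.

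Vim, whose product vimentin is found in immature and reactive astrocytes and also in vascular, meningeal and ependymal cells, was lower in stressed rats. Its signals were 1469.9 and 1521.9 in stressed rats against 2130.7 and 2075.8 in controls. The groups stood well apart, with little spread within either. The fall was 1.41-fold, a log2 fold change of -0.49 (SE 0.05; adjusted p = 0.000439, limma). The call was kept with any array left out, and its adjusted p over all alternatives ran from 0.000363 to 0.102, the last from the methods' t-test.

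Nes, which encodes the filament protein of neural stem cells, was dim on this platform. Its signals were 59.9 and 80.1 in stressed rats and 79.5 and 42.3 in controls, under the minimum on every array, and the groups overlapped. The difference of 0.26 on the log2 scale was not tested, and without control replicate 2 it was -0.20.

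Channels, transporters and their partners included 3 of the 5 higher genes. All 7 genes of this group were tested. By the brightest probe set of each, 3 were higher, 4 did not pass the test and none was lower. None was lower at an unadjusted p under 0.05 either, where 5 were higher in limma. Among the dimmer probe sets, the second of Aqp4 (-1.30) and that of Slc4a4 (-0.57) were called lower and that of Atp1b2 (0.53) higher. Over all genes tested 11.1% were higher at the adjusted threshold, and 19.2% were higher and 16.4% lower at the unadjusted one. The median log2 fold change was 0.13. After Benjamini-Hochberg adjustment, the methods' t-test called none of the 7.

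Slc4a4, which encodes a sodium bicarbonate cotransporter, had signals of 1490.0 and 1544.8 in stressed rats and 1199.0 and 1145.8 in controls at its brighter probe set. The stressed arrays were clearly above the controls. The log2 fold change was 0.37 (SE 0.05; adjusted p = 0.00233, limma). Its other probe set, named by Affymetrix as one that several transcripts of the gene share, moved the other way. There the signals were 335.9 and 308.6 in stressed rats and 468.7 and 489.3 in controls, a log2 fold change of -0.57 (adjusted p = 0.00268, limma). Both calls were kept with any array left out, so no single direction can be given for the gene. The mean of the 2 probe sets, -0.10, did not pass the test (adjusted p = 0.213).

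Atp1b2, a beta subunit of the sodium and potassium pump that also serves in glial adhesion, was higher at both of its probe sets. The brighter had signals of 4568.1 and 4048.4 in stressed rats and 3632.9 and 3579.2 in controls, a log2 fold change of 0.25 (SE 0.06; adjusted p = 0.0216, limma). The dimmer had 175.0 and 212.6 against 139.4 and 128.6, a log2 fold change of 0.53 (adjusted p = 0.0303, limma). The stressed arrays were above the controls in each case, but the stressed pools differed from each other more than the controls did. The call of the brighter probe set was lost without stressed replicate 1 (0.17, adjusted p = 0.101), without control replicate 1 (0.26, adjusted p = 0.0934) and without control replicate 2 (0.24, adjusted p = 0.121). Over the alternatives at this probe set its adjusted p ran from 0.00802 to 0.276. That of the dimmer was lost without stressed replicate 2 (0.39, adjusted p = 0.151), control replicate 1 (0.58, adjusted p = 0.0859) or control replicate 2 (0.47, adjusted p = 0.146), within 0.0252 to 0.239. The mean of both probe sets was 0.39 and was called (adjusted p = 0.00329, limma).

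Hepacam encodes an adhesion protein of endfeet that binds the membrane protein Mlc1. At its brighter probe set the signals were 724.8 and 655.8 in stressed rats and 527.4 and 548.2 in controls, a log2 fold change of 0.36 (adjusted p = 0.0104, limma). At the other they were 485.0 and 438.5 against 521.3 and 516.2, a log2 fold change of -0.17 that did not pass the test (adjusted p = 0.14, limma). Each probe set separated the groups, in opposite directions. The rise lost its call without control replicate 1 (0.33, adjusted p = 0.0687) and without control replicate 2 (0.39, adjusted p = 0.0529), within a range of 0.00943 to 0.193 over the alternatives at this probe set. The mean of both probe sets, 0.09, was not called (adjusted p = 0.366). Mlc1 itself had a log2 fold change of 0.02 with overlapping groups.

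Aqp4, the water channel of astrocyte endfeet, had 3 tested probe sets that differed. The brightest had signals of 5507.9 and 5895.4 in stressed rats and 5297.1 and 5130.2 in controls, a log2 fold change of 0.13 that did not pass the test (adjusted p = 0.10, limma). The second had 535.9 and 499.8 in stressed rats and 1390.4 and 1164.1 in controls. This was the largest difference of any astrocyte probe set tested, a 2.46-fold fall (log2 fold change -1.30, SE 0.09; adjusted p = 9.87e-05, limma), and it was kept with any array left out. The third, at 229.7 and 246.2 against 294.1 and 240.8, had overlapping groups and a log2 fold change of -0.16 (adjusted p = 0.366). The call for Aqp4 therefore depends on the probe set read, and the mean of its probe sets, -0.44, passed the test as lower (adjusted p = 0.00463, limma).

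Gap junctions between astrocytes are formed mainly by the products of Gja1 and Gjb6. Gja1 had signals of 12209.5 and 11635.8 in stressed rats and 10882.4 and 10864.1 in controls, which did not overlap. Its log2 fold change of 0.13 did not pass the test (adjusted p = 0.0784, limma), and its 2 other probe sets were under the minimum signal. Gjb6 had a log2 fold change of 0.02 with overlapping groups (95% interval -0.10 to 0.15). That interval rests on the spread between pools, which may be technical, so it does not bound a difference between stressed and control rats.

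Of the 2 tested receptors, Fgfr3 was lower and Ntsr2 did not pass the test, where 10.2% of all genes were lower. Fgfr3, a receptor for fibroblast growth factors, had signals of 795.2 and 885.5 in stressed rats and 1096.5 and 1093.7 in controls. The controls were nearly equal and both stressed arrays lay below them. The log2 fold change was -0.38 (adjusted p = 0.00518, limma), kept with any array left out. The other probe set of Fgfr3 was under the minimum signal and was not tested. Its signals were 58.5 and 54.1 in stressed rats and 46.6 and 37.5 in controls, a log2 difference of 0.43 in the other direction. Ntsr2, a neurotensin receptor, had a log2 fold change of 0.06 with overlapping groups.

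Id4 and Id3 encode helix-loop-helix proteins that bind other transcription factors and keep them from DNA. Id4 was higher at its brightest probe set, with signals of 1854.6 and 1940.3 in stressed rats and 1554.7 and 1546.2 in controls (log2 fold change 0.29, adjusted p = 0.00471, limma). The second gave 1173.7 and 1163.7 against 905.9 and 937.8, a log2 fold change of 0.34 (adjusted p = 0.00336, limma). Both calls were kept with any array left out. The third gave 372.5 and 386.4 against 316.8 and 248.8, a log2 fold change of 0.43 (adjusted p = 0.0359, limma). It was not called without stressed replicate 1 (0.46, adjusted p = 0.0693), stressed replicate 2 (0.41, adjusted p = 0.0999) or control replicate 2 (0.26, adjusted p = 0.151). The fourth probe set was lower, at 328.4 and 372.5 against 530.2 and 509.2 (log2 fold change -0.57, adjusted p = 0.00343, limma), and was also kept with any array left out. Thus 3 probe sets of Id4 rose and 1 fell, and the mean over its probe sets, 0.12, did not pass the test (adjusted p = 0.18). Id3 had a log2 fold change of 0.08 that did not pass the test.

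**Figure D2:**
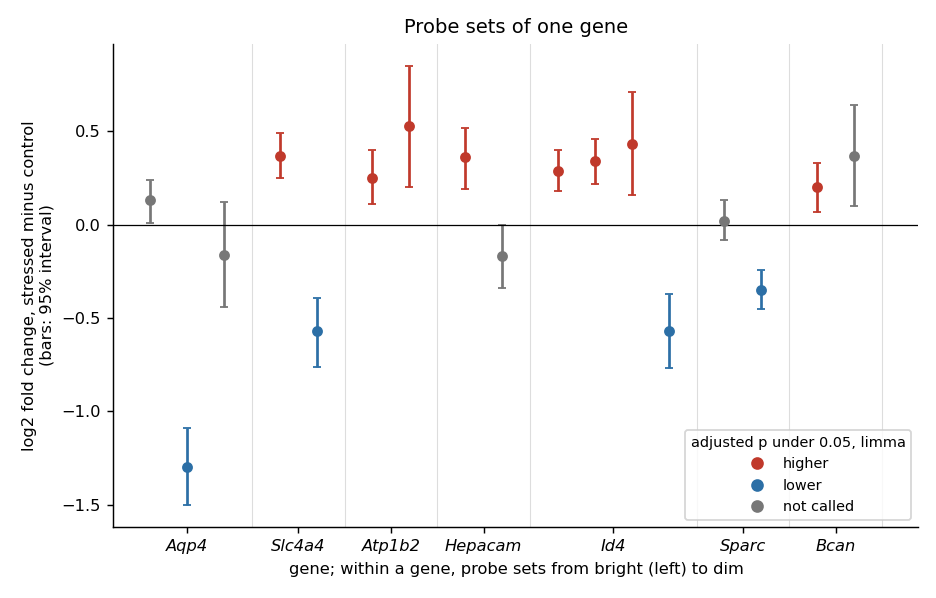
Log2 fold change, stressed minus control, of each tested probe set for the 7 astrocyte genes with over 1 tested probe set, ordered from bright to dim within a gene, with bars for 95% intervals and colours for the call. Probe sets of Slc4a4 and Id4 were called in opposite directions, those of Atp1b2 and Bcan lay on the same side of 0, and 1 of Aqp4 lies at -1.30.

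None of the 5 tested genes for enzymes and related proteins of metabolism was called in limma, where 11.1% of all genes were higher and 10.2% lower. At an unadjusted p under 0.05 in limma 1 was lower, beside 16.4% of all genes. The methods' t-test called none of the 5 after Benjamini-Hochberg adjustment. Their median log2 fold change was 0.03. Dbi, which encodes an acyl-CoA binding protein, was the one past the unadjusted threshold, with 2695.2 and 2875.7 in stressed rats and 2991.9 and 3140.2 in controls (log2 fold change -0.14, adjusted p = 0.0877, limma). Aldh1l1, a folate enzyme widely used as an astrocyte marker, had 415.1 and 428.8 against 444.9 and 466.1. Its groups did not overlap, but the difference of -0.11 did not pass the test (adjusted p = 0.304). The glycolytic aldolase gene Aldoc at 0.03, Ndrg2 at 0.05 and the prohormone-processing carboxypeptidase gene Cpe at 0.10 had overlapping groups. Dio2, whose product activates thyroid hormone, had signals of 10.2 and 26.0 in stressed rats and 21.2 and 33.5 in controls, too dim to test.

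Among 8 tested genes for lipid carriers, secreted and matrix proteins, Bcan was higher, Fabp7 was lower and 6 did not pass the test. Over all genes tested 11.1% were higher and 10.2% lower, so these counts were near the background. Fabp7 encodes the brain fatty acid binding protein of astrocytes and radial glia. Its signals were 2488.2 and 2461.5 in stressed rats and 3129.3 and 3213.9 in controls, with a gap far wider than the spread within either group. The fall was 1.28-fold (log2 fold change -0.36, SE 0.04; adjusted p = 0.00136, limma). Its adjusted p over all alternatives ran from 0.000796 to 0.10, and the call was lost in the methods' t-test. A fall of this size is also under a 1.5-fold or 2-fold minimum.

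Bcan encodes brevican, a proteoglycan of the perineuronal matrix. Its brighter probe set had 2557.0 and 2335.8 in stressed rats and 2087.8 and 2161.5 in controls (log2 fold change 0.20, adjusted p = 0.0347, limma). The dimmer had 295.3 and 354.3 against 263.7 and 236.7, a larger log2 fold change of 0.37 that did not pass the test (adjusted p = 0.0531, limma). Both separated the groups in the same direction. The call was lost without stressed replicate 1 (0.14, adjusted p = 0.173), control replicate 1 (0.18, adjusted p = 0.163) or control replicate 2 (0.23, adjusted p = 0.107), within a range of 0.0219 to 0.276 over the alternatives at this probe set. The mean of both probe sets, 0.29, was called (adjusted p = 0.00997, limma).

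Sparc, which encodes a matricellular protein of astrocytes and vessels, differed between its probe sets. The brighter had 2884.2 and 2935.9 in stressed rats and 2817.6 and 2906.8 in controls, overlapping groups with a log2 fold change of 0.02. The dimmer was lower, at 1498.3 and 1459.6 against 1853.1 and 1904.1 (log2 fold change -0.35, adjusted p = 0.00217, limma), and was kept with any array left out. The mean of both probe sets, -0.16, was called lower (adjusted p = 0.0339, limma). The related Sparcl1 had a log2 fold change of 0.11 that did not pass the test. Of the lipid carriers, Clu had 9231.9 and 8455.0 in stressed rats against 7294.1 and 8164.2 in controls (log2 fold change 0.20, adjusted p = 0.0723, limma) and Apoe stood at 0.09 on the log2 scale (adjusted p = 0.261). The secreted protease Htra1, at -0.11, and the protease inhibitor gene Cst3, at 0.01, also did not pass the test.

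None of 3 genes for calcium, metal binding and membrane proteins was called in limma or, after Benjamini-Hochberg adjustment, in the methods' t-test. Over all genes tested 11.1% were higher and 10.2% lower in limma. At an unadjusted p under 0.05 in limma 1 of the 3 was higher, beside 19.2% of all genes. That gene was S100b, a calcium-binding marker of mature astrocytes, with 11670.7 and 10935.0 in stressed rats against 9785.2 and 10510.1 in controls (log2 fold change 0.16, adjusted p = 0.0816, limma). The metallothionein gene Mt3 had a log2 fold change of 0.06 and the tetraspanin gene Cd9 one of -0.12, both short of the threshold.

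The brightest astrocyte probe sets leaned one way by small amounts. At a mean signal of at least 5000 there were 12, among them those of Gfap, Gja1, Aqp4, Apoe and S100b. All 12 had a positive log2 fold change, from 0.01 to 0.20 with a median of 0.11. None was called in limma, and the methods' t-test called none after Benjamini-Hochberg adjustment. At an unadjusted p under 0.05 in limma 5 were higher, beside 20.4% of tested probe sets of any brightness. All 311 tested probe sets of this brightness also leaned upward, with a median of 0.04 and 62.4% positive. At the adjusted threshold 15.4% of the 311 were higher and 5.47% lower, and their share at the unadjusted threshold was not counted. The replicates shared an order there: stressed replicate 1 exceeded stressed replicate 2 at 11 of the 12 astrocyte probe sets and at 83.0% of the 311, and control replicate 2 exceeded control replicate 1 at 10 of the 12 and at 86.2% of the 311. The part of this shared order in the small differences was not tested. With quantile normalization Gfap, Clu (0.16, adjusted p = 0.0148) and S100b (0.08, adjusted p = 0.0461) passed the test, against adjusted p of up to 0.387 for Clu and 0.374 for S100b in the other alternatives.

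**Figure D3:**
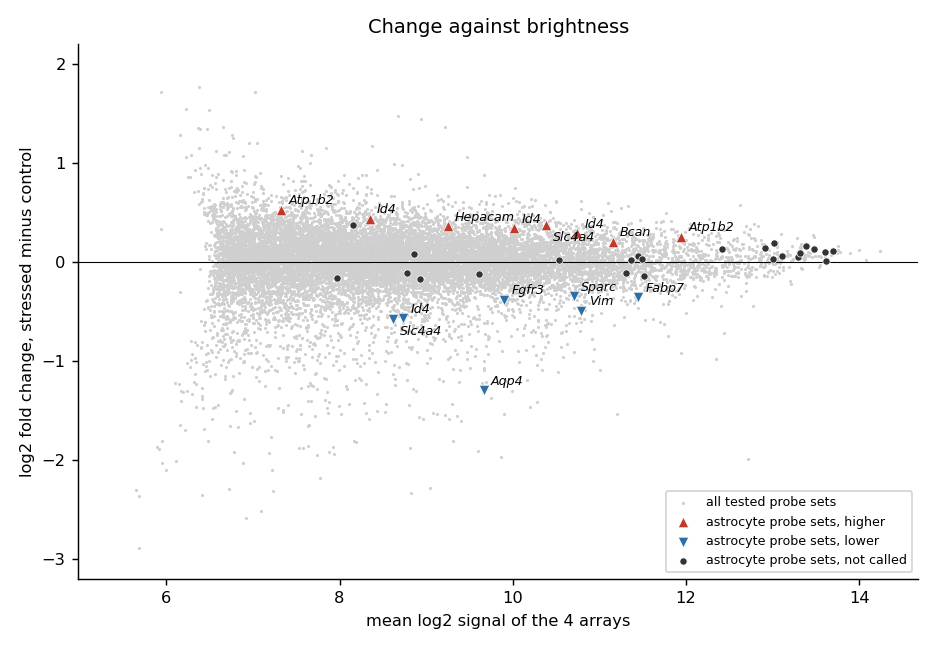
Log2 fold change, stressed minus control, of the tested astrocyte probe sets (coloured or dark) against their mean log2 signal over the 4 arrays, drawn over all tested probe sets (grey). The 12 brightest astrocyte probe sets, at the right, lie between 0.01 and 0.20, whereas dimmer ones run from -1.30 to 0.53.

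Below that brightness the directions were mixed. At mean signals from 1000 to 5000, 5 of 14 astrocyte probe sets were higher and 3 lower, beside 18.1% and 16.7% of all probe sets there. From 500 to 1000, 1 of 4 was higher and 2 were lower, beside 15.6% and 14.1% of all. Below 500, 2 of 9 were higher and 2 lower, beside 8.75% and 9.73% of all.

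A further list of 60 astrocyte genes, none of them among the 34, gave 10 higher and 4 lower of 46 tested, with a median log2 fold change of 0.12. Over all genes tested 11.1% were higher and 10.2% lower, with a median of 0.02. This list and those below were chosen with earlier results of these data known, so their shares are no independent support. Its summed signal was 67865 and 66351 in stressed rats and 62039 and 62794 in controls, which did not overlap. The brightest tested genes in this sum were Slc1a3 (mean 8302.8 in stressed rats and 6448.0 in controls) and Ttyh1 (7477.3 and 6329.7). Leaving out control replicate 1 or control replicate 2 left 6 higher genes, and 2 lower ones remained in count without stressed replicate 1, control replicate 1 or control replicate 2.

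Fgfr2, another receptor for fibroblast growth factors, was higher in stressed rats, opposite to Fgfr3. Its signals were 1237.4 and 1326.9 in stressed rats and 893.0 and 904.5 in controls (log2 fold change 0.51, adjusted p = 0.000824, limma). The glutamate transporter gene Slc1a3 was also higher, with 8329.7 and 8275.8 against 6296.2 and 6599.9 (log2 fold change 0.37, adjusted p = 0.00157, limma). Sdc4, a heparan sulfate proteoglycan of the cell surface, and Ptprz1, a receptor phosphatase, each had a log2 fold change of 0.40 and were called higher. The largest fall was that of the nuclear receptor gene Rorb, which had 111.7 and 132.9 in stressed rats and 273.1 and 257.6 in controls (log2 fold change -1.12, adjusted p = 0.00108, limma). Gjb2, another gap junction gene, was lower at -0.44 (adjusted p = 0.00484). These 6 genes kept their calls with any array left out. The potassium channel gene Kcnj10 and the GABA transporter gene Slc6a11 were under 100 on all arrays at every probe set.

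A list of 43 genes that are raised in reactive astrocytes did not rise as a group. Of 20 tested, 4 were higher and 1 was lower, and the median log2 fold change was -0.02, against the same background. At 14 of the 39 genes with a probe set, among them the reactive markers Lcn2 and Serpina3n, the signal was under 100 on all arrays. The summed signal was 11932 and 11540 in stressed rats and 11732 and 12025 in controls, so the groups overlapped.

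The complement gene C3, whose product is also made by microglia and choroid plexus, was the clearest rise of this list, with 418.1 and 410.8 in stressed rats and 236.8 and 213.7 in controls (log2 fold change 0.88, adjusted p = 0.000687, limma). Synm, which encodes the filament protein synemin that assembles with vimentin, was higher at 0.45 (adjusted p = 0.00216), opposite to Vim. The calls of C3 and Synm were kept with any array left out. The heat shock gene Hspb1 at 0.50 was called, but not without stressed replicate 1 (0.36, adjusted p = 0.075), control replicate 1 (0.53, adjusted p = 0.0729) or control replicate 2 (0.47, adjusted p = 0.0988). Amigo2 at 0.23 lost its call whichever array was left out (adjusted p = 0.102 to 0.135), and S100a10, lower at -0.28, lost it without stressed replicate 2 (-0.26, adjusted p = 0.0632) or control replicate 2 (-0.22, adjusted p = 0.12). The metallothionein gene Mt2A, at -0.18, did not pass the test.

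Markers of tissues that border the hippocampus also moved with the groups. Vim, Sparc and Clu are among the genes that such tissues express as well. Of 13 tested choroid plexus markers 9 were higher and none was lower, also at an unadjusted p under 0.05 in limma, with a median log2 fold change of 0.73, where 11.1% of all genes were higher and 10.2% lower. Their summed signal was 22759 and 21531 in stressed rats and 16505 and 18234 in controls. Among them Sostdc1 rose by 0.88 and F5 by 1.17 on the log2 scale.

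Markers of meninges and fibroblasts went the other way, 9 of 12 being lower and 1 higher, beside 10.2% and 11.1% of all genes. Their median log2 fold change was -0.62. Their summed signal was 9600 and 9869 in stressed rats and 12655 and 12845 in controls. Dcn had a log2 fold change of -0.70 and Ptgds one of -0.44. Without control replicate 1 or control replicate 2 the count of lower markers was 6. Of 7 ependymal markers 4 were lower and 1 higher, with a median of -0.41 and summed signals of 3406 and 3225 against 3719 and 3678. Tmem212 at -1.40 and Dynlrb2 at -0.63 had the smallest p. The part of these tissues in the falls of Vim and of the dimmer Sparc probe set was not tested.

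Vessel markers were higher at 5 of 14 and lower at 1, beside 11.1% and 10.2% of all genes. Their median was 0.27, with summed signals of 6261 and 6342 in stressed rats and 5487 and 5457 in controls. Slco1a4 at 0.33 and Slc2a1 at 0.32 had the smallest p. Without control replicate 2 the count of higher vessel markers was 2. Their part in the values of the endfoot genes Aqp4, Slc4a4 and Hepacam was not tested.

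Other cells gave mixed counts, where 11.1% of all genes were higher and 10.2% lower. Of 16 oligodendrocyte markers 2 were higher and 6 lower with a median of -0.09, of 15 neuronal markers 4 were higher and 2 lower with a median of 0.11, and of 10 microglial markers 1 was higher and 2 lower with a median of -0.05. Summed signals did not overlap for neurons, at 56453 and 55550 in stressed rats against 52698 and 53981 in controls. They were 48076 and 47747 against 48500 and 50600 for oligodendrocytes and 10984 and 10882 against 11122 and 12068 for microglia, both lower in stressed rats on every array. Of 5 markers of oligodendrocyte progenitors 1 was higher and 1 lower. The genes with the smallest p were Enpp2 at 0.34, which is also a choroid plexus marker, and Tspan2 at -0.34 for oligodendrocytes, and Gap43 at -0.28 and Nefm at 0.29 for neurons. They were C1qb at -0.39 and Csf1r at 0.25 for microglia and Cspg4 at 0.60 and Lhfpl3 at -0.51 for progenitors. The last 4 calls were each lost without control replicate 1 or control replicate 2, with adjusted p from 0.0571 to 0.161 there. Without control replicate 2 the counts fell to 2 lower oligodendrocyte markers and 0 called microglial markers, and with any array left out 1 or 2 neuronal markers were higher and 1 was lower. The single tested blood gene, Hbb, had a log2 fold change of -0.06 and was not called.

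**Figure D4:**
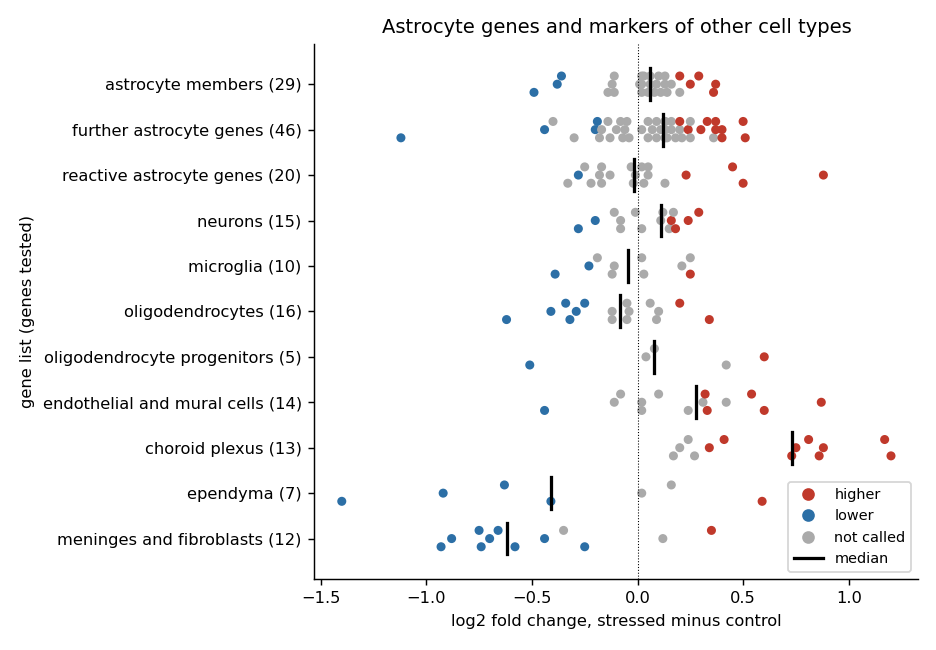
Log2 fold changes, stressed minus control, of the tested genes in the astrocyte list, the further and reactive astrocyte lists and the lists of other cell types, with 1 point per gene coloured by its call and a bar at the median of each list. Medians of the astrocyte lists lie between -0.02 and 0.12, against 0.73 for choroid plexus and -0.62 for meninges and fibroblasts.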

How the data were processed

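The authors hybridized total hippocampal RNA, in pools of 3 rats, to Affymetrix rat genome arrays. The deposited values are GCOS signal intensities on a linear scale, scaled by the authors to a target value of 300, and no further normalization was added. Detection calls and probe positions were not used here.

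Log2 signals (zeros set to 0.1) were fitted in limma 3.58.1 (R 4.3.3), whose moderation followed the intensity trend, without a replicate block and with 7.73 moderated degrees of freedom. The 57 control probe sets were left out. Tested probe sets reached 100 on 2 or more arrays. Calls were made at an adjusted p under 0.05 over 14791 probe sets. The methods' t-test was adjusted in the same way here, whereas the study applied no such adjustment. Where the study's thresholds are named, its fold and p limits were applied to the unadjusted p from limma and to the probe sets tested here. A gene was represented by its tested probe set with the highest mean log2 signal. Of 31042 probe sets the annotation gave 20826 a single gene, 436 several and 9780 none, and for 20758 of the probe sets with 1 symbol the gene matched the RefSeq table of GRCr8 by gene ID. Promoter sequences are those of RefSeq.

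The members and lists were chosen with earlier results of these data known. All members are named, with values per array for Gfap, Vim, Nes and those with a called probe set. For Gja1, Clu, S100b, Dbi, Aldh1l1 and Dio2 they were added after the values were seen. Of the further and reactive lists the 6 genes with the smallest p are named, and of other lists 2. Kcnj10, Slc6a11, Lcn2 and Serpina3n were named after their signals were seen. The fit was first tested on simulated data. Alternatives were quantile normalization, median centring, other filters and offsets, no trend, the methods' t-test, a replicate block, each array left out, other thresholds and other choices of probe set. Tables and figures used python 3.11.15, pandas 2.3.3, numpy 2.4.6, scipy 1.17.1 and matplotlib 3.10.9. The number of arrays limits the precision.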

Additional observations from a re-analysis of the deposited data

How the results depend on the processing

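The 5 higher astrocyte genes became 8 with quantile normalization, 3 without the filter on dim probe sets or without the trend, 2 with the mean of a gene's probe sets, and 0 with the methods' t-test, the study's thresholds or a 1.5-fold minimum. The 3 lower became 7 by any tested probe set, 5 with the mean of probe sets and 0 under the last 3 settings named for the higher genes. With each array left out the higher count ran from 2 to 5 and the lower was 3 each time. The 10 higher further genes became 6 with the mean of probe sets, 1 with the t-test, 0 with the study's thresholds and 0 at 1.5-fold, and 6 to 9 with an array left out. The 4 lower became 8 by any probe set, 2 without the filter or the trend, 0 with the t-test, 1 with the study's thresholds and 1 at 1.5-fold, and 2 to 3 with an array left out. The 4 higher reactive genes became 2 without the trend, 0 with the t-test, 0 with the study's thresholds and 1 at 1.5-fold, and 2 to 3 with an array left out. The 1 lower became 0 without the trend, with the t-test, the study's thresholds or 1.5-fold, and 0 to 2 with an array left out. Gfap passed with quantile normalization (0.12), and Vim did not with the t-test (-0.49). The cause was not tested.

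The replicate number as a block left 4 higher and 3 lower astrocyte genes and 2 lower further genes. Deviations of same-numbered arrays correlated at -0.11, so the numbers were not taken as pairs, and a crossed pairing, added after seeing the data, gave 13 higher.

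The sign turned with the mean of probe sets for Aqp4 (-0.44), Slc4a4 (-0.10) and Sparc (-0.16), and with quantile normalization for Ndrg2 (-0.01) and Cst3 (-0.03). With an array left out, uncalled log2 fold changes ran from -0.02 to 0.07 for Gjb6, -0.04 to 0.07 for Mlc1, -0.03 to 0.13 for Ndrg2, -0.01 to 0.07 for Aldoc and -0.07 to 0.09 for Cst3.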
